A study of Rattus norvegicus with 16 samples.

Results

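The respiratory chain of the mitochondrial inner membrane is built from the products of both genomes of the cell. Complexes I, III and IV pass electrons from NADH and ubiquinol to oxygen and pump protons, complex II feeds in electrons from succinate, and complex V, the ATP synthase, makes ATP from the proton gradient. The mitochondrial genome encodes membrane-embedded core subunits of complexes I, III, IV and V, and all subunits of complex II are nuclear. In the kidney, the proximal tubule is known for its dense mitochondria and oxidative metabolism. The genes described here were every row of the expression table whose symbol follows the naming of these subunits and of the factors that share their names (Mt-nd, Mt-co, Mt-cyb and Mt-atp; Nduf; Sdha to Sdhd; Uqcr; Cox4 to Cox8; Atp5). The rule found 101 of 13222 rows, of which 13 are mitochondrially encoded and 88 nuclear. The nuclear rows carry 86 symbols, because Cox6b1 and Uqcrb each stand on 2 rows with separate Ensembl identifiers, between which reads may have been divided.

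RNA was sequenced from sieved glomeruli of 16 male Wistar rats of about 175 g, taken on day 11, with 4 rats in each of 4 groups. The groups were healthy rats (Ctl), rats given puromycin aminonucleoside intravenously, a podocyte toxin used to model nephrotic syndrome (PAN), and rats given the same toxin with daily oral pioglitazone (PAN_Pio) or GQ-16 (PAN_GQ-16), both named as PPARgamma agonists. The labels name a sham vehicle, but give no dose and do not say whether the healthy rats were gavaged. All libraries came from poly(A) RNA of whole glomerular isolates, so fewer cells of a type and less RNA per cell cannot be told apart. The labels give no litter, cage or batch, and rat numbers only name the rats of a group.

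Libraries held 13351137 to 21977663 reads in the listed genes. The 13 mitochondrially encoded genes took 13.7, 39.0, 32.1 and 18.9% of all reads in control rats 1 to 4, and 5.83, 9.72, 10.6 and 10.1% in the PAN rats. The shares were 19.0, 15.9, 12.5 and 8.61% in the pioglitazone rats and 18.04, 30.90, 8.997 and 6.629% in the GQ-16 rats. Because so large and variable a part of each library moves every other share, reads were divided by median-ratio size factors, which rest on the typical gene, and levels are given as scaled CPM, reads relative to a common total. Changes are differences of group means of log2(scaled CPM + 1), tested with limma over all 13222 genes with Benjamini-Hochberg adjustment, and a gene is called at an adjusted p under 0.05. Levels are compared between rats for 1 gene at a time, not between genes, since gene length was not used.

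Promoter sequences were compared among the nuclear members. A RefSeq promoter of assembly GRCr8, running from 250 bases before to 50 bases after the start, was found for 74 of the 86 nuclear symbols. Letters bound by factors known to act on respiratory genes were searched on both strands: CCGGAAG for GABP and other ETS factors, GCATGCGC for NRF1, AAGATGGC for YY1, CAAGGTCA for the estrogen-related receptors, and ACGTG for the hypoxia response element. The 3 promoters below show the only nuclear member called between PAN and control rats (Ndufa4l2), the iron-sulfur subunit of complex II (Sdhb) and a complex I subunit whose promoter holds 3 of the motifs (Ndufa6). Capitals mark CCGGAAG, GCATGCGC and AAGATGGC.
Ndufa4l2, chr7:65241919-65242218, + strand: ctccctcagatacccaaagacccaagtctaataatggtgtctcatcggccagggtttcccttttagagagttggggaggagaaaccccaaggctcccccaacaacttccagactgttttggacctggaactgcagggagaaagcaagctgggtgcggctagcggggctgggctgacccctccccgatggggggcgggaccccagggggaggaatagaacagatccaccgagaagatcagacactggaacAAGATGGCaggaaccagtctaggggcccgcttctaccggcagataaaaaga
Sdhb, chr5:158547684-158547983, + strand: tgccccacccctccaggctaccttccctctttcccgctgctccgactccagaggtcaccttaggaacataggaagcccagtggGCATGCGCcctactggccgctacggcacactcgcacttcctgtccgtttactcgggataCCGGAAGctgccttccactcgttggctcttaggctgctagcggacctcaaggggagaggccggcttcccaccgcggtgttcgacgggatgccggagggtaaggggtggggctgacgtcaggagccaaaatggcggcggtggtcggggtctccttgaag
Ndufa6, chr7:115750268-115750567, - strand: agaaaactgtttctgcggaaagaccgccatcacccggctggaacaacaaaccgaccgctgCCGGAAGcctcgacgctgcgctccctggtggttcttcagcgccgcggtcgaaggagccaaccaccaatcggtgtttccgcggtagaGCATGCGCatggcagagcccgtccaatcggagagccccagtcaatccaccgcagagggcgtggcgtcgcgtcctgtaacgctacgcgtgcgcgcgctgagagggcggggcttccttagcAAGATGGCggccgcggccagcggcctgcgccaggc
In all, 35 of the 74 member promoters (47.3%) held at least 1 of the 3 capitalised motifs, against 25.73% of the promoters of table genes. AAGATGGC was in 21.62% of member promoters and 5.64% of table promoters, GCATGCGC in 13.51% and 5.04%, CCGGAAG in 28.38% and 17.74%, and CAAGGTCA in 5.41% and 0.93%. The hypoxia letters ACGTG were in 27.03% and 25.51%, and over all 27457 promoters of the reference table the 5 shares were 3.44, 2.66, 9.22, 1.48 and 19.73% in the same order. AAGATGGC contains the letters of a start codon and can lie at the beginning of a coding sequence, as its place next to the start in Ndufa4l2 and Ndufa6 allows. A match describes these letters only.

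All 13 mitochondrially encoded genes were lower in PAN rats than in control rats, and in none of the 13 did the groups overlap. Of all genes, 5.23% were lower in PAN without overlap and 10.6% were higher without overlap. The median difference of the 13 was -1.75 on the log2 scale, with a narrow range from -1.86 (Mt-atp8) to -1.52 (Mt-nd3), against -0.0025 for all genes. Only 1 of the 13, Mt-nd4l, was called lower, where 8.63% of all genes were called (7.12% higher and 1.51% lower). Each of the 13 had an unadjusted p under 0.05, and their limma adjusted p ran from 0.0447 to 0.188. These genes are read from the same 2 polycistronic strands of the same genome, so they do not count as 13 separate observations.

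**Figure D1:**
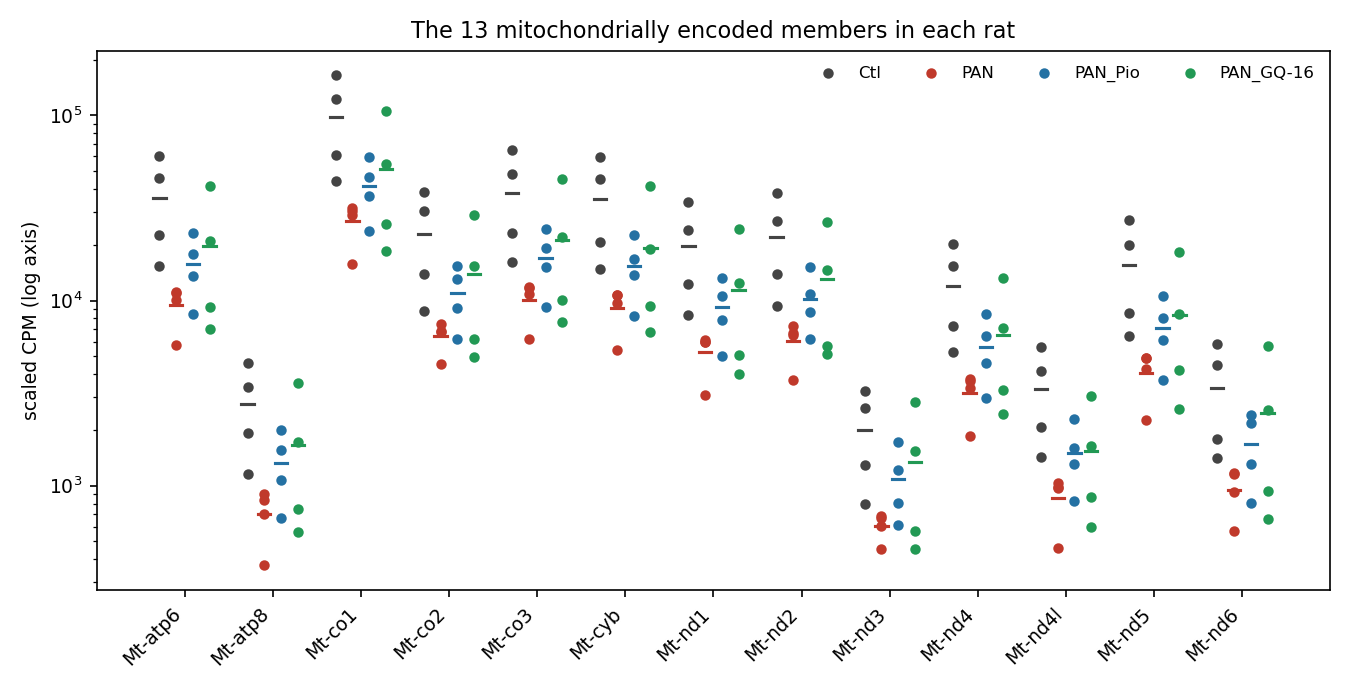
Scaled CPM (log axis) of each of the 13 mitochondrially encoded genes, with a point per rat and a bar at the group mean, 4 rats per group. The 4 PAN rats lie below the 4 control rats for every gene, and the drug groups overlap both.

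Complex I contributes 7 of these genes, all proton-pumping membrane subunits. Mt-nd4l stood at 1435, 5638, 4153 and 2073 scaled CPM in control rats 1 to 4 and at 459, 972, 979 and 1040 in PAN rats 1 to 4. The controls spread over a wider range than the PAN rats, with rats 2 and 3 high, and PAN rat 1 was the lowest of the 8. The difference was -1.81 ± 0.52 (SE, 4 rats per group; limma adjusted p = 0.0447, 95% interval -2.93 to -0.69). Mt-nd6, the only protein gene on the light strand and one whose transcript is known to lack a stable poly(A) tail, measured 1409, 5844, 4505 and 1779 scaled CPM in controls and 571, 922, 1165 and 1155 in PAN rats. Its difference was -1.63 (limma adjusted p = 0.12), so it lay in the range of the heavy-strand genes.

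Complex III has 1 mitochondrial gene, Mt-cyb, which encodes cytochrome b. Its level was 14873, 59875, 45170 and 20607 scaled CPM in controls and 5429, 9663, 10695 and 10669 in PAN rats, a difference of -1.78 (limma adjusted p = 0.097). In complex IV, Mt-co1, which carries the oxygen-reducing centre, read 44030, 164672, 123187 and 60893 scaled CPM in controls and 15775, 29128, 31545 and 30442 in PAN rats. That difference of -1.74 ± 0.81 (SE) did not pass (limma adjusted p = 0.188), and the same rats stood high and low as for Mt-nd4l. In complex V, the proton channel subunit Mt-atp6 differed by -1.77 (limma adjusted p = 0.0973) and its neighbour Mt-atp8 by -1.86 (limma adjusted p = 0.0561).

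Shares within the mitochondrial messages varied less between rats than their sum. Mt-co1 held between 29.4 and 33.0% of the reads of the 13 genes in every library. The widest relative ranges were those of Mt-nd6, from 0.936 to 1.57%, and Mt-nd3, from 0.594 to 0.897%, whose mean was 0.639% in controls and 0.745% in PAN rats. Mt-nd6 over the other 12 was -6.55 ± 0.13 on the log2 scale in controls, -6.44 ± 0.11 in PAN, -6.39 ± 0.18 in pioglitazone and -6.27 ± 0.26 in GQ-16 rats (SD, n = 4 each), with overlapping ranges. The 2 mitochondrial rRNA genes, against the sum of the 13, were at -6.20 ± 0.09 in controls and -5.76 ± 0.34 in PAN rats (SD, n = 4 each). Poly(A) selection removes most rRNA, so that ratio describes what the selection kept. Of 6 mitochondrial tRNA rows, all lower in PAN, 1 was called (log2 difference -1.58, limma adjusted p = 0.0432).

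The nuclear members did not shift in the same way. Of 88 rows, 1 was called higher and 0 lower by limma, against 7.12% and 1.51% of all genes, and 9 had an unadjusted p under 0.05, against 26.6% of all genes. Of the 88, 24 were above and 64 below 0, with a median of -0.12 (-0.24 without PAN rat 4 and -0.04 without PAN rat 1). Under the library total as deposited the sign of that median turned to 0.18, since that scaling moved the median of all genes to 0.28. The same scaling gave a median of -1.44 for the mitochondrial genes and 6 of 13 called lower, where 0.522% of all genes were called lower. So the nuclear direction depended on the scaling and the mitochondrial direction did not.

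**Figure D2:**
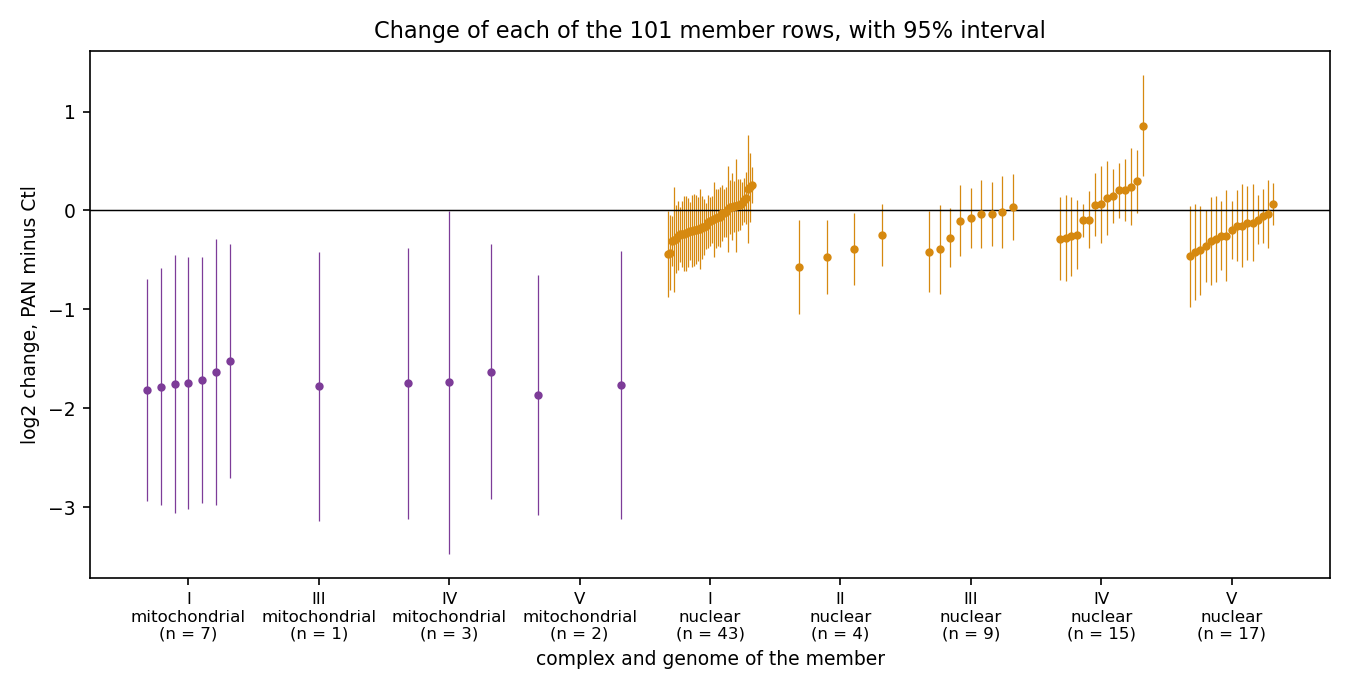
Log2 change between PAN and control rats for each of the 101 member rows, with limma's 95% interval, by complex and by genome of origin, 4 rats per group. The mitochondrial members lie between -1.86 and -1.52, and the nuclear ones between -0.57 and 0.86.

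By complex, the nuclear structural subunits had medians of -0.16 in complex I (35 rows, 25 below 0), -0.43 in complex II (4 of 4 below 0), -0.08 in complex III (8 of 9 below 0), 0.06 in complex IV (5 of 13 below 0) and -0.23 in complex V (15 of 16 below 0). Under the deposited library total the same medians were 0.14, -0.13, 0.22, 0.36 and 0.07, so that the sign turned in complexes I, III and V and held in II and IV, against 0.28 for all genes. Within complex I the 7 core subunits of the matrix arm, which carry the flavin and the iron-sulfur clusters, were all below 0 with a median of -0.24 (0.06 under the library total), and the 28 supernumerary subunits had a median of -0.08 (0.21 under the library total). The 8 assembly factors named Ndufaf had a median of -0.05 (0.23 under the library total). No structural subunit passed the limma test between PAN and control rats; the smallest adjusted p among the 77 was 0.0693, for Ndufa7, an accessory subunit of complex I.

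Ndufa7 was the only nuclear member without overlap between PAN and control rats, where 10.6% of all genes were higher and 5.23% lower without overlap. Its level was 39.5, 37.0, 38.3 and 40.5 scaled CPM in controls and 42.2, 50.5, 43.9 and 50.3 in PAN rats, a log2 difference of 0.26 ± 0.08 (SE). All 4 PAN rats stood just above all 4 controls, in the opposite direction to the mitochondrial subunits of the same complex.

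Complex II, succinate dehydrogenase, has no mitochondrial gene and also works in the citric acid cycle. The flavoprotein subunit Sdha read 457, 460, 514 and 402 scaled CPM in controls and 249, 322, 308 and 477 in PAN rats. PAN rat 4 lay within the controls, and the other 3 PAN rats lay below them. The log2 differences were -0.47 for Sdha (limma adjusted p = 0.112), -0.39 for the iron-sulfur subunit Sdhb (limma adjusted p = 0.164), -0.57 for the membrane anchor Sdhc (limma adjusted p = 0.123) and -0.24 for the other anchor, Sdhd (limma adjusted p = 0.29). The 12 measured citric acid cycle genes were likewise all below 0, with a median of -0.37 (-0.07 under the library total) and 0 called.

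In complex IV, Ndufa4l2, a paralog of the subunit Ndufa4 that is known as a hypoxia-inducible gene, was the only nuclear member called. It read 33.7, 17.3, 13.04 and 29.1 scaled CPM in controls and 28.6, 48.2, 49.5 and 38.5 in PAN rats. PAN rat 1 lay inside the control range, and the 2 controls with the most mitochondrial reads, rats 2 and 3, had the lowest Ndufa4l2. The rise was 0.86 ± 0.24 (SE; limma adjusted p = 0.0394, 95% interval 0.34 to 1.37). Pioglitazone rats had 47.9, 40.1, 36.0 and 47.9 scaled CPM and GQ-16 rats 35.2, 38.2, 37.4 and 39.1. Against controls the differences were 0.94 with pioglitazone (limma adjusted p = 0.0506) and 0.76 with GQ-16 (limma adjusted p = 0.0935). ACGTG is not in its printed promoter window, which says nothing of sites elsewhere.

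Ndufa4 itself went with the other nuclear subunits. It read 173, 167, 180 and 154 scaled CPM in controls and 107, 144, 124 and 201 in PAN rats, with PAN rat 4 above every control and the other 3 below (log2 difference -0.26, limma adjusted p = 0.375). Of the other subunits that occur as isoforms, Cox4i1, the common form of subunit 4, differed by -0.09 (limma adjusted p = 0.67). The oxygen-responsive form Cox4i2 was scarce, at 1.09 to 2.81 scaled CPM in controls and 1.78 to 3.20 in PAN rats, with a difference of 0.24 (limma adjusted p = 0.399). Cox6a1 differed by 0.20 and Cox8a by 0.06, and the 2 rows of Cox6b1 by 0.15 and 0.21. Cox7a2l, which helps to join complexes III and IV, differed by -0.10. The isoforms Cox6a2, Cox6b2, Cox7a1, Cox7a2 and Cox8b were not analysed here. The 3 genes of the identical ATP synthase c subunit differed by -0.25 (Atp5mc1), 0.07 (Atp5mc2) and -0.40 (Atp5mc3), none of them called.

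**Figure D3:**
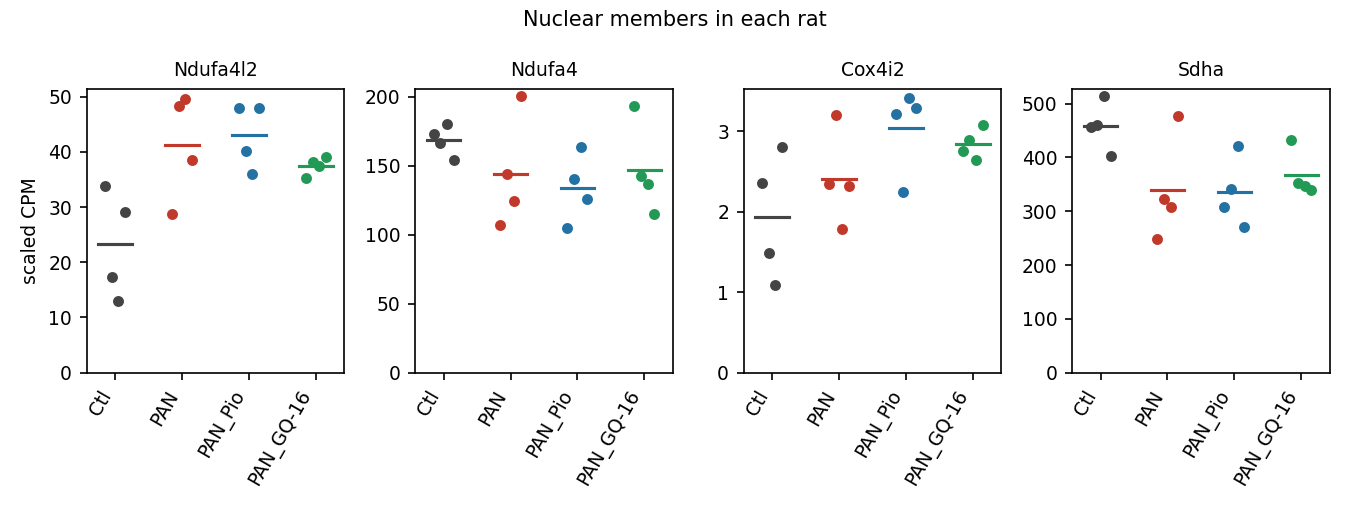
Scaled CPM of Ndufa4l2, Ndufa4, Cox4i2 and Sdha in each rat, with a bar at the group mean, 4 rats per group and axes from 0. Ndufa4l2 is lowest in the controls, and Ndufa4 and Sdha each have 1 PAN rat, rat 4, apart from the other 3.

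PAN rat 4 stood apart from its group in many nuclear members. Without it, 8 nuclear members were called between PAN and control rats in place of 1, but calls also rose over all genes, from 8.63 to 13.3% (8.61% higher and 4.67% lower). The members had 1 of 88 higher and 7 of 88 (7.95%) lower. Besides Ndufa4l2 these were Ndufs1, Ndufs7 and Ndufv3 of complex I, Sdha and Sdhc of complex II, Uqcrc2 of complex III and Atp5f1c of complex V, all 7 lower. For example Ndufs1, the largest iron-sulfur subunit of complex I, read 190, 189, 211 and 178 scaled CPM in controls and 98.9, 146, 130 and 210 in PAN rats. Atp5f1b, the catalytic subunit of the ATP synthase, showed the same order, with 1737, 1663, 1887 and 1503 in controls and 891, 1255, 1216 and 1878 in PAN rats. In both genes PAN rats 1 to 3 lay below every control, and rat 4 lay inside the control range, near its top.

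That split moved with proximal tubule markers. The 15 markers of this cell type, all detected, summed to between 12668 and 17416 scaled CPM in controls and between 3788 and 18506 in PAN rats, and PAN rat 4 was the highest rat of all 16 in their mean log2 level and PAN rat 1 the lowest. None of the 15 was called between PAN and control rats, and their median difference was -0.62 (-0.31 under the library total). Over the 16 rats the mean log2 level of the nuclear members followed the proximal tubule mean with r = 0.861 and rho = 0.832 (r = 0.807 without the 2 rats farthest from the median, r = 0.863 after subtraction of group means). For single genes the median r was 0.771, and 37 of the 88 rows (42.05%) had an r above 0.8, against 8.73% of all genes. Atp5f1a had the highest r, at 0.945, and only Cox4i2 (-0.304) and Ndufa4l2 (-0.34) were below 0. By complex the structural subunits gave r = 0.858 (I), 0.911 (II), 0.871 (III), 0.735 (IV) and 0.883 (V). These are descriptions, of 18 correlations between means and, for single genes, 88 with the proximal tubule mean and 13 with the podocyte mean, over values that share libraries and scaling. With the proximal tubule mean as a covariate the nuclear median went from -0.12 to 0.04 and that of the mitochondrial genes from -1.75 to -1.66.

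**Figure D4:**
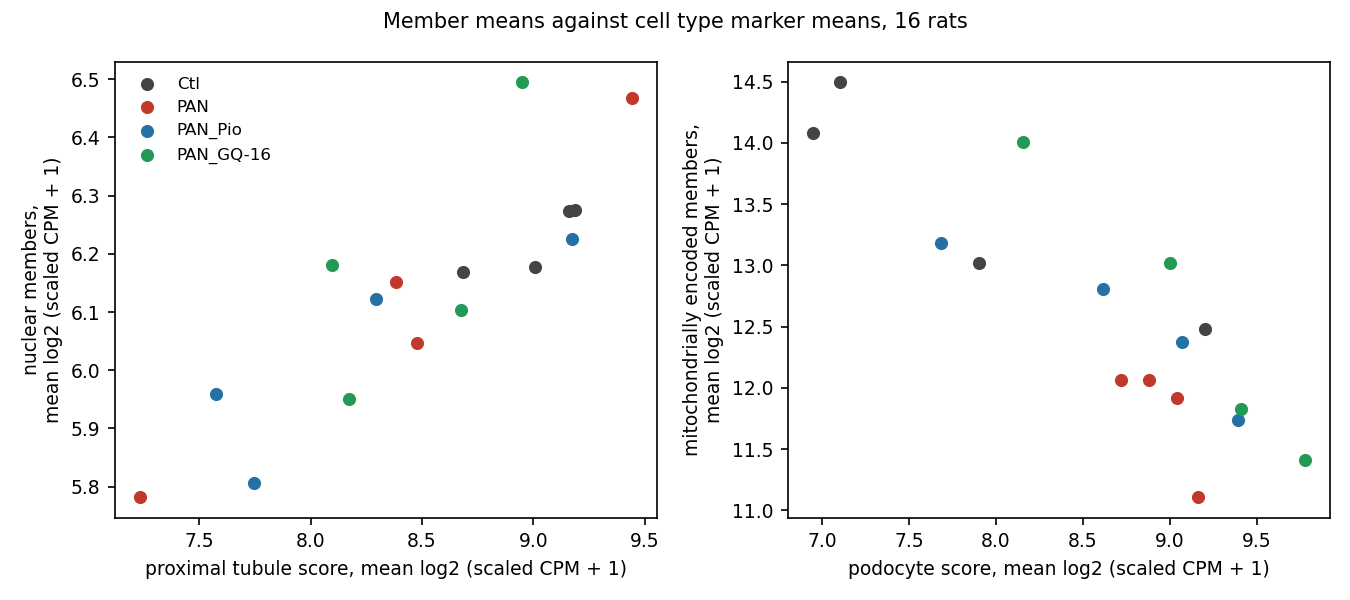
Mean log2(scaled CPM + 1) of the nuclear members against that of 15 proximal tubule markers (left) and of the mitochondrially encoded members against that of 9 podocyte markers (right), a point per rat, 16 rats coloured by group. The left cloud rises (r = 0.861) and the right cloud falls (r = -0.873).

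The mitochondrially encoded genes followed other markers. Their mean log2 level was related to the proximal tubule mean with only r = 0.313 and to that of the nuclear members with r = 0.355. Against the podocyte mean it gave r = -0.873 and rho = -0.865 (r = -0.766 without the 2 farthest rats, r = -0.89 after subtraction of group means). Over the single genes r ran from -0.893 to -0.831. Further relations were r = 0.813 with distal tubule and collecting duct, 0.702 with glomerular endothelium, -0.791 with mesangium and pericytes, and -0.296 with leukocytes. For the nuclear members the same relations were r = 0.428, -0.326, -0.554 and -0.664, and -0.126 with podocytes.

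These marker lists themselves differed between PAN and control rats. All 9 podocyte markers were above 0 with a median of 1.13, and they summed to between 2675 and 8535 scaled CPM in controls and between 6530 and 8925 in PAN rats. Of 9 mesangial and pericyte markers 7 were called higher (sums of 449.9 to 914.1 in controls and 1670 to 2586 in PAN), and of 8 distal markers 4 were called lower (974.9 to 2304 and 441.1 to 1007). The 6 measured endothelial markers were all below 0 with 0 called (4687.5 to 7655.6 and 3895.7 to 5878.3), and of 7 leukocyte markers 0 were called (161.3 to 192.6 and 187.0 to 505.7). Of 11 striated muscle markers 3 were in the table, all called higher (5.7 to 24.6 and 320.1 to 537.0). No marker in the table was at 0 in all libraries. With the podocyte mean as a covariate, an alternative chosen after the data were seen, the median of the mitochondrial genes went from -1.75 to -0.58, still below 0, and 0 of 13 were called, in a fit that called 4.42% of all genes (0.734% lower, against 1.51% without the covariate). The podocyte mean itself differed between the groups (7.79 ± 1.03 in controls and 8.95 ± 0.19 in PAN rats, SD). That fit therefore cannot separate the podocyte markers from the group. The part of any of the marker lists in the result was not tested.

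Dividing the reads of the mitochondrial genes by those of the nuclear members in the same library removes the library scaling from the comparison. The log2 ratio was 3.52, 5.58, 5.02 and 4.18 in control rats 1 to 4 and 2.76, 3.20, 3.41 and 2.87 in the PAN rats, without overlap. The group means were 4.58 ± 0.91 and 3.06 ± 0.30 (SD, n = 4 each), a difference of -1.52, so that the ratio was 2.86-fold higher in controls. The difference was -1.59 within complex I, -1.57 within III, -1.71 within IV and -1.43 within V. In each of the 4 complexes that draw on both genomes, the 4 PAN rats lay below the 4 controls. The margin was narrow in complex V, where PAN rat 3 at 1.791 stood just under control rat 1 at 1.795.

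**Figure D5:**
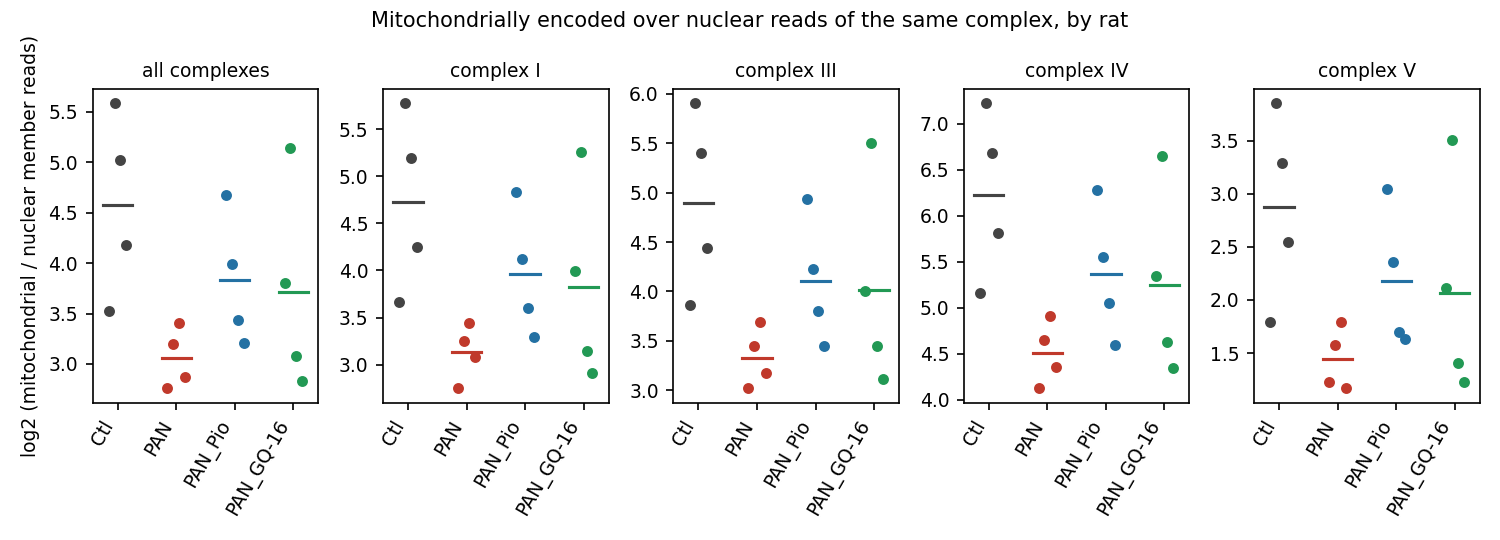
Log2 ratio of mitochondrially encoded to nuclear member reads in each rat, over all complexes and within complexes I, III, IV and V, with a bar at the group mean, 4 rats per group. PAN rats lie below controls in every panel, and the drug groups span both ranges.

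The library numbers in the sample titles also divide the groups. All 4 controls have numbers of 15 or lower, and PAN rats 1 to 3, pioglitazone rat 4 and GQ-16 rat 4 have 25 or higher. The labels do not say what the numbers stand for. Among the lower numbers the only PAN rat, rat 4, had a log2 ratio of 2.87, below the controls at 3.52 to 5.58. With the number class as a covariate the median of the mitochondrial genes was -1.03, that of the nuclear members turned to 0.10, and 0 members were called. The share of all genes called fell to 2.88% in that fit, and the share called lower to 0.257%.

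Neither drug gave a called member against PAN alone. In both comparisons limma called 0 of 13222 genes (0%; 733 had an unadjusted p under 0.05 with pioglitazone and 912 with GQ-16), and voom weights also gave 0. The 13 mitochondrial genes were above 0 in each, with medians of 0.74 (pioglitazone, limma adjusted p from 0.776 to 0.871) and 0.78 (GQ-16, from 0.831 to 0.946). The GQ-16 median was 0.30 without GQ-16 rat 2. These comparisons share the PAN rats. Mt-nd4l read 2292, 1594, 1315 and 823 scaled CPM in pioglitazone rats and 1632, 3047, 869 and 595 in GQ-16 rats. Rats 1 and 2 of each drug group lay within the control range, and pioglitazone rat 4 and GQ-16 rats 3 and 4 lay within the PAN range.

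None of the cell type markers was called between a drug group and PAN alone, and their values stand beside those of the members. With pioglitazone 6 of 6 endothelial markers were above 0 (median 0.45), 8 of 9 podocyte markers below 0 (-0.25), 12 of 15 proximal tubule markers below 0 (-0.19) and 5 of 8 distal markers above 0 (0.18). With GQ-16 7 of 8 distal markers were above 0 (0.53), as were 4 of 6 endothelial (0.17), 6 of 9 podocyte (0.13) and 11 of 15 proximal tubule markers (0.15), and 9 of 9 mesangial and pericyte markers were below 0 (-0.68, against -0.21 with pioglitazone). Podocyte markers summed to between 4169.8 and 10241 scaled CPM in pioglitazone rats and between 4621.4 and 12796.6 in GQ-16 rats, and distal markers to 583.5 to 753.4 and 603.0 to 1353.8. With each drug 7 of 7 leukocyte markers were below 0 (median -0.36 with pioglitazone and -0.60 with GQ-16). The 3 muscle markers in the table were also below 0 with each (-1.11 and -1.30). The part of all these markers in the drug comparisons was not tested.

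The log2 ratio of mitochondrial to nuclear reads was 4.67, 3.99, 3.44 and 3.21 in pioglitazone rats and 3.80, 5.14, 3.08 and 2.83 in GQ-16 rats. Against PAN the means differed by 0.77 and 0.65, with overlap in both. The first was 0.49 without pioglitazone rat 1, and the second 0.18 without GQ-16 rat 2. The rat with number 25 or higher was the lowest of its group in both drug groups. The nuclear medians against PAN were -0.07 with pioglitazone (76 of 88 below 0) and 0.10 with GQ-16 (71 of 88 above 0). The pioglitazone value turned to 0.05 without PAN rat 4, and went to -0.19 without PAN rat 1 and -0.01 without pioglitazone rat 1. The GQ-16 value turned to -0.02 without PAN rat 1, -0.01 without GQ-16 rat 1 and -0.03 under the deposited library total, and was 0.20 without PAN rat 4 and 0.16 without GQ-16 rat 4. The nuclear members nearest to a call against PAN were Cox6a1 and Ndufb8 with pioglitazone (-0.34 and -0.26, limma adjusted p = 0.776 for both) and Cox6a1 and Cox7a2l with GQ-16 (-0.19 and 0.10, limma adjusted p = 0.869 and 0.884).

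Against healthy controls the mitochondrial medians of the drug groups were -0.99 in both comparisons, with 13 of 13 below 0 and 0 called. Limma called 2.84% of all genes with pioglitazone and 0.741% with GQ-16, and no nuclear member in either. Voom weights also gave no member. Of the 88 nuclear members 13 and 3 had an unadjusted limma p under 0.05 (14.8% and 3.41%), against 20.7% and 24% of all genes. The nuclear medians were -0.22 and -0.05, and under the deposited library total -0.004 and 0.13. Of the 15 proximal tubule markers 14 were below 0 in each comparison (medians -0.89 and -0.61, 0 called), and all 9 podocyte markers were above 0 (0.91 and 1.39, 0 called). All 8 distal markers were below 0 (-1.10 and -0.67), with 2 called lower with pioglitazone. Of 9 mesangial and pericyte markers 6 were called higher with pioglitazone (median 1.04) and 0 with GQ-16 (0.52). The 3 muscle markers in the table were called higher in both (3.74 and 3.33). Endothelial medians were -0.07 and -0.35 and leukocyte medians 0.23 and 0.07, with 0 called. The part of these markers in the comparisons with controls was not tested. Cox5b, a zinc-binding subunit of complex IV, came nearest to a call after Ndufa4l2 with pioglitazone, at -0.50 (limma adjusted p = 0.108). It read 136, 138, 153 and 113 scaled CPM in controls and 73.1, 98.2, 110.5 and 101.5 in pioglitazone rats.

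The 2 drugs were also set against each other in rats given the same toxin. Limma called 0 of 13222 genes (0%, with 958 at an unadjusted p under 0.05, and 0 with voom weights). The mitochondrial median was 0.06 higher and the nuclear median 0.16 higher with GQ-16, and 86 of 88 nuclear members were above 0. In the same comparison 14 of 15 proximal tubule markers (median 0.27), 8 of 8 distal markers (0.45) and 9 of 9 podocyte markers (0.43) were above 0. Below 0 were 6 of 6 endothelial (-0.24), 8 of 9 mesangial and pericyte (-0.46) and 7 of 7 leukocyte markers (-0.23). Of 3 muscle markers 2 were above 0 (0.03), and no marker was called. Proximal tubule markers summed to between 5006.9 and 15839.1 scaled CPM in pioglitazone rats and between 7126.5 and 14089.6 in GQ-16 rats, and the part of these markers in the nuclear difference was not tested. Ndufb8, an accessory subunit of complex I, had the largest difference of the nuclear members, 0.35 with a 95% interval of 0.09 to 0.60 (limma adjusted p = 0.681). For Mt-co1 the difference between the drugs was 0.06, and its 95% interval, -1.68 to 1.79, left changes of either sign within reach at 4 rats per group.

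The genes that make and regulate mitochondria were examined from lists chosen for this pathway. Of 25 measured genes for transcription and processing of mitochondrial RNA, 2 were called higher in PAN than in control rats and 0 lower, near the 7.12% of all genes called higher. These were the tRNA-processing enzyme Elac2 (0.26) and the oligoribonuclease Rexo2 (0.37), and the median of the list was -0.07. The polymerase Polrmt differed by -0.09, the packaging and transcription factor Tfam by -0.12 and Lrpprc, which stabilises mitochondrial messages, by -0.32, none of them called. None of 11 genes for replication of the mitochondrial genome was called by limma. Of 77 proteins of the mitochondrial ribosome 2 were called higher, Mrpl23 (0.55) and Mrpl33 (0.51), with a list median of -0.02, a share below that of all genes.

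Among 10 measured regulators of mitochondrial biogenesis 0 were called and 9 were below 0. Since 8.63% of all genes were called, 0 in lists as short as these is not a result about the lists. The coactivator Ppargc1a differed by -0.51 (limma adjusted p = 0.226), Ppargc1b by -0.15, the receptor Esrra by -0.25, Nrf1 by -0.11 and Gabpa, the DNA-binding GABP subunit, by -0.12. The 5 electron carriers outside the naming rule were all below 0 with 0 called, with Cycs, cytochrome c, at -0.59 (limma adjusted p = 0.26) and Cyc1, the cytochrome of complex III, at -0.27 (limma adjusted p = 0.279). Of 36 further assembly factors 0 were called (median -0.08), and of 17 genes for import and mitochondrial mass 0 were called (median -0.15). Under the deposited library total the medians became 0.22 for mitochondrial RNA processing, 0.33 for replication, 0.26 for the mitochondrial ribosome, 0.13 for the regulators, 0.02 for the carriers, 0.21 for the assembly factors and 0.15 for import and mass, and the sign turned in all of these but replication (0.03 under median-ratio scaling). No gene of these lists was called in either drug group against PAN.

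The calls themselves rested on few rats. Without control rat 1, 8 of the 13 mitochondrial genes were called, in a fit that called 12.1% of all genes (2.59% lower). Without GQ-16 rat 2 or rat 4, which enter through the shared variance, 3 were called, in fits that called 9.07% and 9.36% of all genes (1.56% and 1.62% lower). None was called without any 1 of control rats 2, 3 and 4, PAN rats 1, 2 and 3, pioglitazone rats 2 and 3, or GQ-16 rats 1 and 3. Those fits called 3.89% to 8.56% of all genes, and 0.265% (without control rat 3) to 1.54% (without GQ-16 rat 1) were called lower. With the proximal tubule covariate Ndufa4l2 lost its call (limma adjusted p = 0.0612) and Ndufa7 gained one (0.31). Ndufa4l2 also lost its call in 6 of the 16 fits that each left out a rat, with its adjusted p between 0.0091 and 0.128. The median of the mitochondrial genes stayed between -2.09 and -1.42 in all 16 fits.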

How the data were processed

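The authors deposited log2 CPM, a count of reads relative to the library total, for 13222 genes in 16 libraries. Per the submitters' processing notes the tools were HISAT2, featureCounts (Subread) and limma with build Rnor_6.0; versions are not given in the sources used here. The deposited log2 values are log2 of (reads + 0.5) over (total + 1), and undoing this gave whole reads for 100% of values (tolerance 0.05). Totals therefore count reads in the listed genes only, each of which reached 2 CPM in at least 8 libraries. No libraries of a group agreed within counting error.

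Reads were divided by median-ratio size factors over 13219 genes, and log2(scaled CPM + 1) was fitted with limma 3.58.1 (R 4.3.3), with a variance trend, 1 model of 4 group means over all 16 libraries, and Benjamini-Hochberg adjustment. Log2 changes understate those of scarce genes. P-values measure the spread between these rats.

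The members and lists were chosen with earlier results of these data known. Genes were named by rule: all mitochondrial members, isoform sets, complex II, up to 5 called nuclear members each way per comparison or, with fewer than 2, the 2 smallest p, and 11 regulators. Ndufs1, Atp5f1b, Atp5f1a and the other members named for rats left out or for correlations were chosen after their values were seen. Alternatives were other scalings, a pseudocount of 0.1, a mean of at least 10 scaled CPM, voom weights, only the groups compared, covariates, and leaving out each rat.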

Additional observations from a re-analysis of the deposited data

Results flagged for a closer look

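Within groups of 4 rats, the lowest or highest value was compared with the rest for 144 gene and group combinations, and 6 stood apart, where chance gives about 7.2 (1 in 20). PAN rat 1 was far below the other 3 PAN rats in Mt-nd1 (3076 scaled CPM against 5933 to 6084), Mt-co3 (6235 against 10857 to 11800), Mt-nd4l (459 against 972 to 1040) and Mt-co1 (15775 against 29128 to 31545). These 4 genes lie on the same transcript, so the 4 flags are not separate. Pioglitazone rat 2 was low in Cox4i2 (2.24 scaled CPM against 3.22 to 3.41), a gene near the lower limit of the table. GQ-16 rat 1 was high in Sdha (432 scaled CPM against 340 to 352).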

How the results depend on the processing

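No paired analysis was possible because the labels carry no replicate numbers. Between PAN and control rats, the count of called mitochondrial members (1) became 6 under the library total, and 0 with voom weights, with only the 2 groups fitted, and with library number, proximal tubule or podocyte covariates; leaving out each rat gave 0 to 8. Of all genes 8.63% were called, against 22.3% under the library total, 7.92% with voom, 6.27% with 2 groups, 2.88%, 7.03% and 4.42% with the 3 covariates, and 3.89% to 13.3% without each rat. The count of called nuclear members (1) became 3 under the library total (3 of 88), 0 with only the 2 groups fitted and with library number or podocyte covariates, and 0 to 8 without each rat (8 without PAN rat 4); with the proximal tubule covariate it stayed 1, but the call passed from Ndufa4l2 to Ndufa7. Between pioglitazone and control rats the nuclear count (0) became 1 under the library total, the upper quartile and a pseudocount of 0.1, each time Ndufa4l2, and 0 to 1 without each rat; between GQ-16 and control rats it was 0 to 1. The nuclear median (-0.12) turned to 0.18 under the library total, 0.10 with the library number covariate and 0.04 with the proximal tubule covariate, and stayed between -0.24 and -0.04 without each rat. The mitochondrial median (-1.75) was -0.58 with the podocyte covariate. The cause of these shifts was not tested. Adjusted p over the alternatives reached 0.406 for Mt-nd4l and 0.271 for Ndufa4l2. Of the single-gene results under all alternatives, 25 lost a call, 25 gained one and 963 kept their side of the threshold, among which 14 uncalled values changed sign (in 7 of 39 results, none mitochondrially encoded). For the drugs against PAN, leaving out each rat gave mitochondrial medians of 0.51 to 0.99 (pioglitazone) and 0.30 to 1.15 (GQ-16), and ratio differences of 0.49 to 0.97 and 0.18 to 0.95. Counting error is largest for the 5 members under a mean of 10 scaled CPM, of which Cox4i2 is the scarcest.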
